A study of Mus musculus with 36 samples.

Results

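Oxidative phosphorylation genes are the nuclear genes for the enzyme complexes of the mitochondrial inner membrane that burn fuel with oxygen and make ATP, and for factors that assemble them. Members were chosen by gene symbol: Nduf genes for complex I, Sdh genes with a to d as the next letter for complex II, Uqcr genes and Cyc1 for complex III, Cycs for cytochrome c, Cox4 to Cox8 for complex IV and Atp5 for ATP synthase. Pseudogenes and probe sets with several gene symbols were left out, and each gene was read from its probe set with the highest mean over all arrays. This gave 96 members with 190 probe sets, of 18193 genes with a singly named probe set on the array. Of these members, 86 passed the filter on low values (a log2 level over 4 on at least 3 arrays) and were tested among 9538 genes.

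Electrons from NADH enter the respiratory chain at complex I and those from succinate at complex II. Complex III passes them to cytochrome c, and complex IV hands them to oxygen. Complexes I, III and IV pump protons across the inner membrane, and ATP synthase uses the returning protons to make ATP. A few subunits are encoded by the mitochondrial genome, while the genes described here are nuclear and their proteins are imported. NRF1 (nuclear respiratory factor 1), ETS family factors and YY1 are known regulators of many of these genes. Fibroblasts use oxidative phosphorylation alongside glycolysis and carry the subunit isoforms found in most tissues, such as Cox4i1, rather than those of heart and skeletal muscle.

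The series measured RNA newly made in the mouse fibroblast line NIH-3T3, which was derived from embryos, on 36 Affymetrix arrays. RNA was labelled with 4sU (4-thiouridine), a nucleoside that cells build into RNA made while it is present. All cells, mock included, were given fresh medium at time 0, so no group without a medium change entered this description. The medium held no interferon (mock), IFN alpha at 100 U/ml or IFN gamma at 100 U/ml. Each treatment was labelled with 500 µM 4sU in the windows 0-30, 30-60 and 150-180 min and with 200 µM 4sU in the window 0-60 min, which makes 12 groups of 3 arrays. The labels number the arrays and do not say whether they came from separate cultures, so the p-values cover the spread from array to array alone, which may be technical. In RNA of a window, more synthesis and slower loss of young RNA cannot be told apart, and less RNA per cell cannot be told from fewer expressing cells.

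Levels below are log2 relative to the median of the array, that is, the deposited log2 value minus the median of all probe sets of that array that are no controls. A difference of 1 is a 2-fold change in signal. All 10 fibroblast markers on the array were above the filter, while markers of epithelium (0 of 5), endothelium (0 of 4), macrophages (1 of 6), adipocytes (1 of 4) and muscle (1 of 5) were nearly all below it. Arrays of a group correlated with each other at 0.97 to 0.995 over all probe sets, except the mock group of 0-60 min (0.909 to 0.987). Array 1 of that group stood apart, with a Gapdh 3′ minus 5′ difference of 2.67, a sign of RNA quality. Some results that use this array are also given without it, as stated at each, and the others include it.

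Promoters of 79 of the 96 members were found in the RefSeq table of the GRCm38.p6 build, as 300 bases from 250 before to 50 after the start, and were searched on both strands for short motifs. The NRF1 motif, searched as GCGCANGCG, was present in 22 of the 79 (27.8%) and in 6.47% of the 27025 promoters of all genes. The ETS motif CCGGAAG was present in 21 (26.6%, all promoters 9.12%) and the YY1 motif ATGGCGGC in 7 (8.86%, all promoters 2.38%). Interferon motifs were also counted, the ISRE core GAAANNGAA in 6 members (7.59%, all promoters 8.57%) and the GAS TTCNNNGAA in 5 members (6.33%, all promoters 8.47%). The Sp1 motif GGGCGG was present in 40 members (50.6%, all promoters 35.9%) and the TATA box TATAAA in 9 (11.4%, all promoters 14.2%). Among these members, matches of one motif overlapped those of another only in Ndufs3 (the ETS motif with the Sp1 motif). The stretches below come from Sdha, Cox6a1 and Ndufaf4, which all carry the NRF1 motif, and from Atp5d. From 0-30 to 30-60 min in mock, Sdha and Cox6a1 both fell (-1.43 and -1.24), while Ndufaf4 was not called (-0.20). Atp5d, the member called with interferon, carries a GAS motif. Capitals mark the motif on either strand, the sequences run 5′ to 3′ on the strand of the gene, and a match of letters does not show that a factor was bound.
Sdha (chr13:74350241-74350363, minus strand, upstream of the start): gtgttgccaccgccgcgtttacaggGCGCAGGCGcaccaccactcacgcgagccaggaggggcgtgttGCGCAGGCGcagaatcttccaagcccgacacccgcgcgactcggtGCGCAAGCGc
Cox6a1 (chr5:115349042-115349145, minus strand, upstream of the start): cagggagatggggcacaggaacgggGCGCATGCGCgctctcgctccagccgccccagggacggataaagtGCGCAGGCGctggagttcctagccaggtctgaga
Ndufaf4 (chr4:24897945-24898004, plus strand, upstream of the start): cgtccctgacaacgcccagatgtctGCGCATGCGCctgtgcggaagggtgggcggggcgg
Atp5d (chr10:80142175-80142233, plus strand, upstream of the start): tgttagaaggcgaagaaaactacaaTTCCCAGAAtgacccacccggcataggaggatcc

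The first comparison set mock 30-60 min against mock 0-30 min and so followed the labelled RNA of mock cells after the medium change. Of the 86 tested members, 77 fell and 0 rose (adjusted p under 0.05 in limma), where 52.7% of all tested genes fell and 8.68% rose. The median difference was -1.19 for the members and -0.53 for all tested genes, and 77 members lay below that median of all genes. In 78 members every 30-60 min array lay below every 0-30 min array, against 59.8% of all genes. The fall took in every complex, from complex I to ATP synthase.

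The members' median on each array shows the size of this change beside the spread. It was 5.19 at the lowest, 5.46 in the middle and 5.78 at the highest over the 9 arrays of 0-30 min. Over the 9 arrays of 30-60 min it was 4.17, 4.43 and 4.57, and over those of 150-180 min 5.21, 5.41 and 5.60. Relative to the array median, all 9 arrays of 30-60 min therefore lay below the other 27 arrays, whatever the treatment. The 0-60 min arrays lay between, at 4.77, 4.90 and 5.09. The median of all tested genes moved less, from 3.93 at 0-30 min to 3.36 at 30-60 min and 3.95 at 150-180 min. Relative to that median of tested genes, the 30-60 and 0-60 min arrays were not separated. There the members' median was 0.91 to 1.21 at 30-60 min and 0.93 to 1.29 at 0-60 min. It was 1.31 to 1.78 at 0-30 min and 1.34 to 1.61 at 150-180 min.

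**Figure D1:**
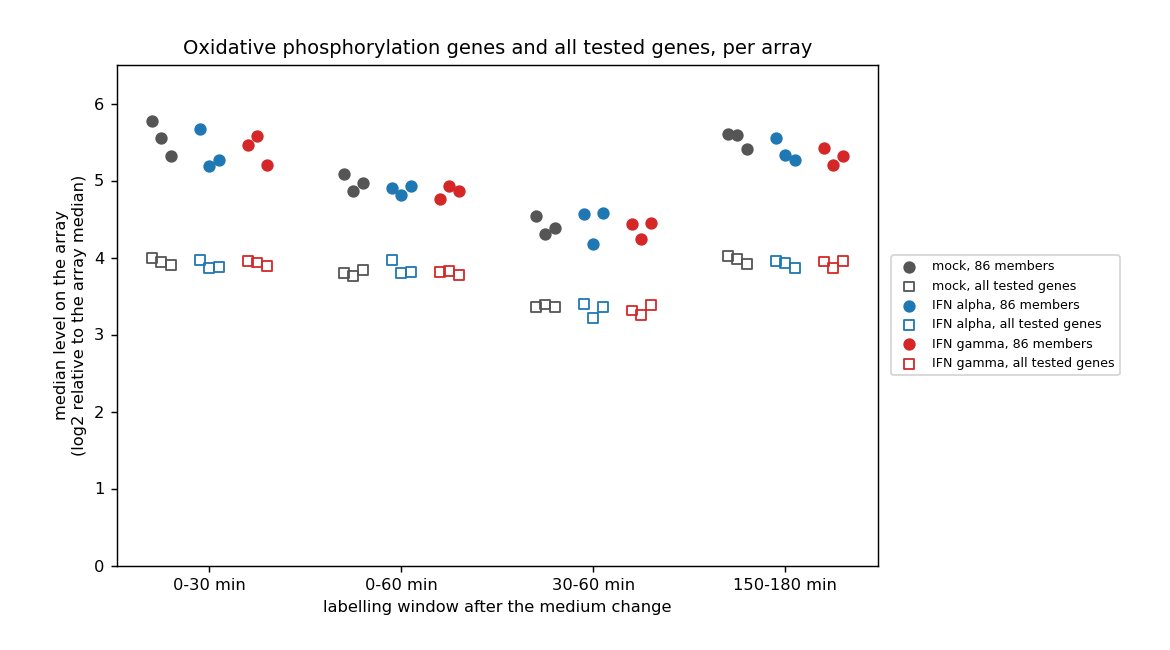
Median level (log2 relative to the array median, vertical axis) of the 86 tested members (filled circles) and of all tested genes (open squares) on each of the 36 arrays, by labelling window and treatment (colour). The members' median is 4.17 to 4.57 on the 9 arrays of 30-60 min and 4.77 or higher on the other 27.

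How far the members fell beyond other genes depends on the reference. When the median of the tested genes, in place of the median of the whole array, was subtracted from each array, a choice made after seeing the data, the median over all tested genes moved from -0.53 to 0.04. On that scale 62 members fell and 4 rose, beside 22.2% and 26.5% of all genes, with a members' median of -0.62. The members that rose on that scale were Ndufa12 (0.65), Ndufb6 (0.54), Uqcrc2 (0.47) and Ndufaf4 (0.38). Calls of a fall ended there for Sdhc (-0.33, adjusted p = 0.312 in limma), Sdhd (-0.36, 0.137), Cycs (-0.12, 0.691), Cox4i1 (-0.19, 0.273), Atp5d (-0.45, 0.0529), Atp5g2 (-0.27, 0.287) and Atp5g3 (-0.04, 0.847), among others. The signs given below are therefore relative to the array median.

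The averages of hybridisation and RNA controls also differed between windows. The spiked bacterial control bioC averaged 9.66 on the arrays of 30-60 min, 7.93 on those of 0-30 min and 7.63 on those of 150-180 min. It was uneven at 30-60 min, from 8.02 to 10.99, which overlaps the 7.78 to 8.08 of 0-30 min. On the mock arrays of 30-60 min it was 10.85, 9.86 and 8.29 in the order of their numbers. The Actb 3′ minus 5′ difference was 1.54 at 30-60 min, 1.07 at 0-30 min and 1.48 at 150-180 min. At 30-60 min it was 1.98 to 2.08 on the arrays numbered 2 and 1.14 to 1.53 on the others. The Gapdh 3′ minus 5′ difference averaged 0.02 at 30-60 min (-0.57 to 0.73), -0.02 at 0-30 min and -0.27 at 150-180 min. The labels give no batch, so the window and any processing that went with it cannot be told apart, and the part of these controls in the results was not tested.

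In complex I, the NADH dehydrogenase, 6 of 6 core subunits, 23 of 27 accessory subunits and 5 of 7 assembly factors fell, with medians of -1.18, -1.21 and -1.16. Ndufa6, an accessory subunit, had the largest fall of all members. Its level was 4.11, 4.17 and 3.95 on the mock arrays of 0-30 min and 2.52, 1.57 and 1.92 on those of 30-60 min. The groups were far apart, with a difference of -2.07 ± 0.27 (SE, n = 3 and 3, adjusted p = 1.65e-07 in limma). Ndufv2, an iron-sulfur subunit of the NADH-oxidising end, went from 6.32, 6.22 and 5.90 to 4.73, 4.15 and 4.43. That is a difference of -1.71 ± 0.17, again with no overlap. Ndufv1, which binds NADH through its flavin, fell by 1.50 ± 0.24. Ndufs1, the largest iron-sulfur subunit, moved from 6.02, 6.24 and 5.93 to 5.22, 5.04 and 5.01, a smaller but narrow difference of -0.98 ± 0.12 (adjusted p = 4.82e-08 in limma). Ndufab1, an acyl carrier protein that also serves mitochondrial fatty acid synthesis, fell by 1.65 ± 0.20. Among the assembly factors, Ndufaf2 fell the most, from 3.14, 3.14 and 2.55 to 1.41, 0.76 and 1.43 (-1.74 ± 0.23).

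Complex II, succinate dehydrogenase, is the one complex of the chain that is also an enzyme of the citric acid cycle. All 4 subunits fell, with a median of -1.10, and all 4 assembly factors fell, with a median of -1.65. Sdha, the flavoprotein that oxidises succinate and whose promoter is shown above, had 5.11, 5.00 and 4.79 at 0-30 min and 3.79, 3.41 and 3.41 at 30-60 min. The groups did not overlap and differed by -1.43 ± 0.16 (adjusted p = 1.36e-08 in limma). Sdhb, the iron-sulfur subunit, fell by 1.26 ± 0.22. The membrane anchors Sdhc and Sdhd fell by 0.90 ± 0.25 and 0.93 ± 0.21. For Sdhc the mock arrays of 30-60 min were widely spread, at 3.09, 4.34 and 3.64, below 4.94, 4.44 and 4.41 at 0-30 min by a narrow margin.

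Sdhaf3, an assembly factor for the iron-sulfur subunit, was at 2.71, 2.36 and 2.34 at 0-30 min and at 0.55, 0.54 and 0.33 at 30-60 min. Its difference was -2.00 ± 0.25 (adjusted p = 1.1e-07 in limma). Sdhaf1, which acts on the same subunit, fell by 1.61 ± 0.24, and Sdhaf4, which acts on Sdha, by 1.69 ± 0.23. Sdhaf2, needed to attach the flavin to Sdha, fell by 0.96 ± 0.22. Sdhaf3 passed the filter on 29 of the 36 arrays, so part of its signal lies near background.

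In complex III and cytochrome c, 9 of 10 members fell, with a median of -1.33. Uqcr10, a small subunit, went from 4.99, 4.37 and 4.15 to 3.19, 2.39 and 2.58, a difference of -1.79 ± 0.28 with no overlap. Cyc1, the cytochrome c1 that hands electrons on, went from 6.64, 6.33 and 6.25 to 5.41, 5.13 and 5.18 (-1.17 ± 0.18, adjusted p = 2.69e-06 in limma). The Rieske iron-sulfur protein Uqcrfs1 fell by 1.02 ± 0.16, and the core protein Uqcrc1 by 1.35 ± 0.20. Cycs, the mobile carrier cytochrome c, fell less. Its level was 8.18, 8.04 and 7.82 at 0-30 min and 7.44, 7.18 and 7.33 at 30-60 min, a difference of -0.70 ± 0.23 (adjusted p = 0.011 in limma).

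In complex IV, cytochrome c oxidase, 9 of 11 tested members fell, with a median of -1.16. Cox5b, a zinc-binding subunit, had 7.50, 7.23 and 6.98 at 0-30 min and 5.40, 5.46 and 5.85 at 30-60 min. These groups lay more than 1 log2 unit apart, with a difference of -1.67 ± 0.16 (adjusted p = 8.46e-10 in limma). Cox7a2 fell by 1.38 ± 0.15, Cox6c by 1.24 ± 0.14 and Cox6a1 by 1.24 ± 0.18. Cox4i1, the isoform of most tissues, fell by 0.77 ± 0.16. Cox7a2l, which takes part in joining complexes III and IV into supercomplexes, fell by 1.00. Ndufa4, first assigned to complex I and later found in complex IV, fell by 1.14 ± 0.20.

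In ATP synthase, all 5 tested subunits of the F1 head and all 12 of the Fo part, stalk and associated proteins fell, with medians of -1.15 and -1.18. Atp5o, a stalk subunit that joins F1 to Fo, moved from 5.23, 4.93 and 4.86 to 3.35, 2.81 and 3.15. Its difference of -1.90 ± 0.24 was the largest of the synthase (adjusted p = 1.19e-07 in limma). The catalytic subunit Atp5b moved from 8.84, 8.43 and 8.37 to 7.47, 7.39 and 7.60 (-1.06 ± 0.13), and Atp5a1, its partner in the ring, fell by 1.15. The rotating gamma subunit Atp5c1 fell by 1.58 ± 0.21 and the delta subunit Atp5d by 1.03 ± 0.20. The 3 genes Atp5g1, Atp5g2 and Atp5g3 encode the same mature ring protein of Fo. They fell by 1.14, 0.85 and 0.62.

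**Figure D2:**
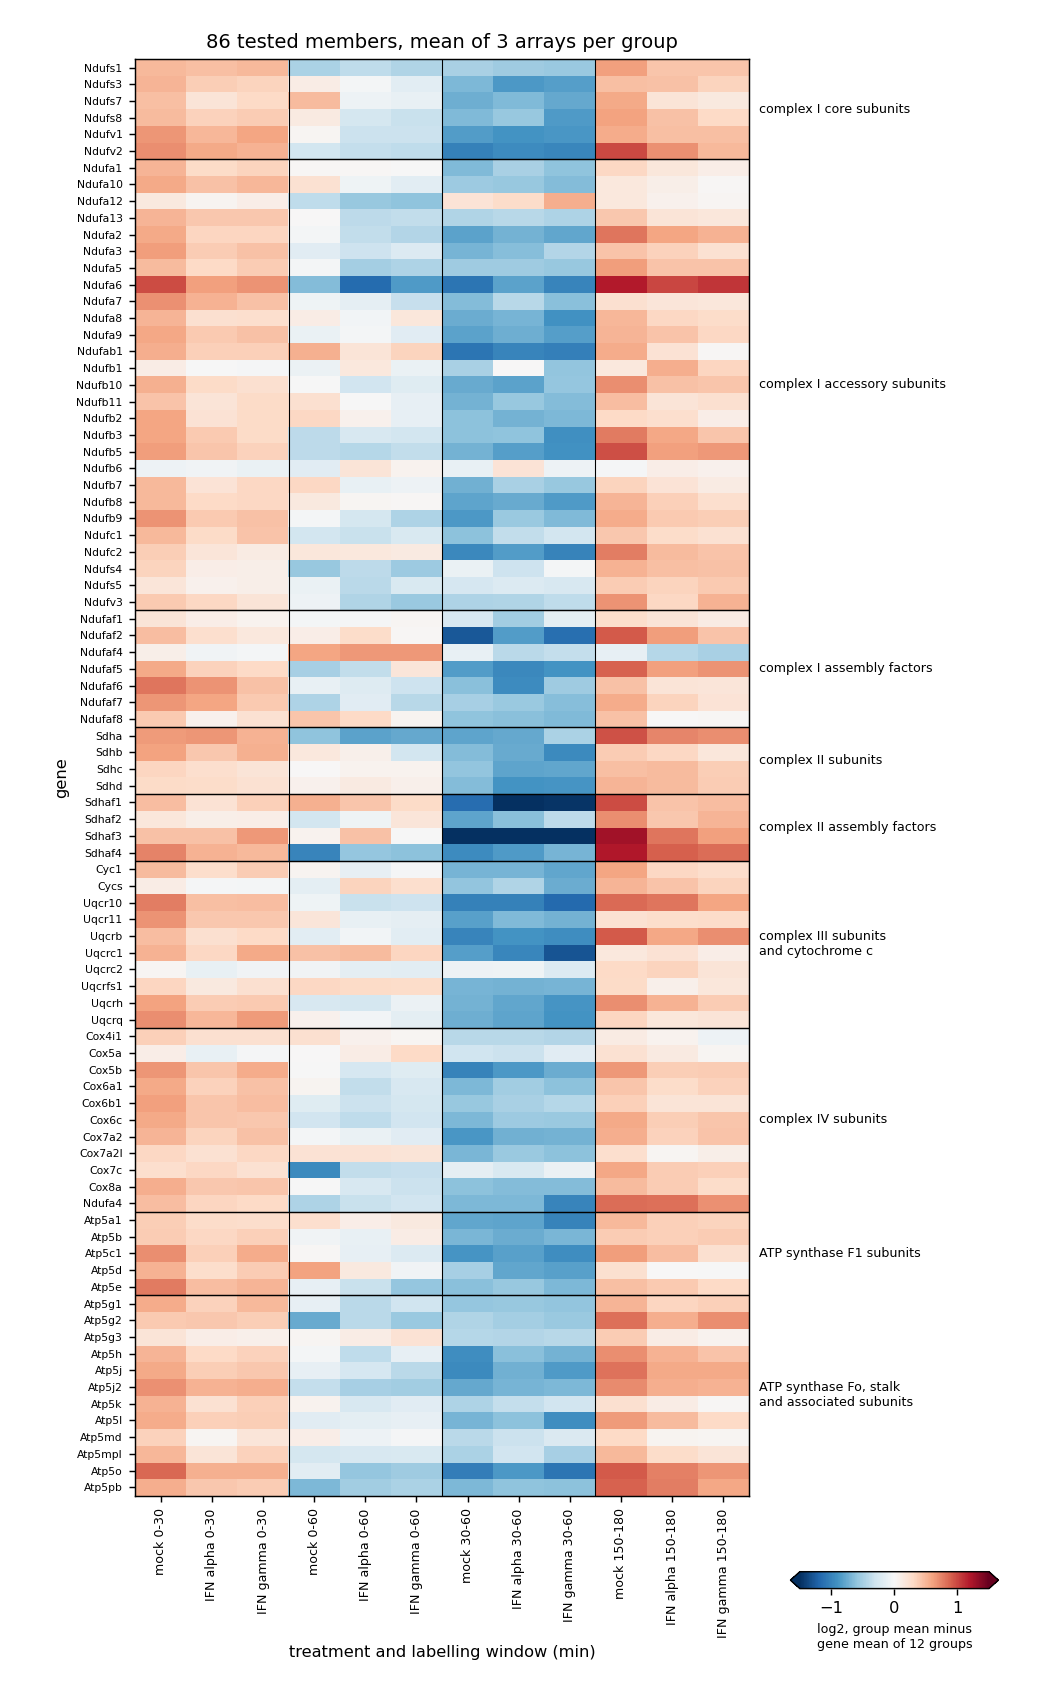
Each row is 1 of the 86 tested members, grouped by complex, and each column 1 of the 12 groups; colour is the mean of 3 arrays (log2 relative to the array median) minus the mean of that gene over the 12 groups. The 3 columns of 30-60 min are low in nearly every row, with exceptions such as Ndufb6, whose 12 group means span 0.37.

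The 9 members not called were spread over complexes I, III and IV. Differences near 0 were seen for Ndufa12, an accessory subunit (0.07 ± 0.16, 95% interval -0.26 to 0.39), Ndufb6, another accessory subunit (-0.04 ± 0.17, -0.38 to 0.30), the core protein Uqcrc2 (-0.11 ± 0.13, -0.36 to 0.15) and the assembly factor Ndufaf4 (-0.20 ± 0.17, -0.54 to 0.14). Ndufa12 had 6.36, 6.16 and 6.11 at 0-30 min and 6.57, 6.04 and 6.23 at 30-60 min. Ndufb6 had 5.61, 5.60 and 5.30, then 5.59, 5.32 and 5.48. In both genes the windows overlapped. Ndufs5 (-0.44), Ndufs4 (-0.44), Ndufaf1 (-0.44) and Cox5a (-0.40) missed the threshold with adjusted p of 0.0556, 0.0661, 0.0546 and 0.0754 in limma. Cox7c (-0.40 ± 0.37) had the widest error of them.

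Other probe sets did not always go with the one that stands for the gene. Over the 46 genes with several kept probe sets, 55 of 72 further probe sets fell and 1 rose, and the sign differed within 7 genes. The other probe set of Ndufb6 fell by 1.39 (adjusted p = 3.03e-06 in limma). The further probe sets of Ndufa12 gave 0.09, 0.26 and 1.79, the last past the threshold (adjusted p = 0.000114). That of Uqcrc2 fell by 0.63, those of Cox5a gave -0.25 and -1.08, and that of Ndufaf4 gave 0.05. So of the 4 members near 0, Ndufaf4 is the one whose probe sets all lay close to it.

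Mock 150-180 min against mock 30-60 min showed the opposite movement. Since both comparisons use the same mock arrays of 30-60 min, a low value there enters both, and they are not independent. Here 82 members rose and 0 fell, beside 54.9% and 10.2% of all tested genes. The median difference was 1.13 for the members and 0.57 for all genes, and 79 members lay above the latter. In 83 members every array of 150-180 min lay above every array of 30-60 min, against 60.1% of all genes. With the median of the tested genes subtracted, 57 members rose and 3 fell (25.6% and 28.5% of all genes), the members' median was 0.53 and that of all genes -0.03.

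The complex II assembly factors led this rise with a median of 2.14, while the medians of the other member groups were 1.06 to 1.30. Of these 4 assembly factors, 1 passed the filter on all 36 arrays, so part of their signal lies near background. Sdhaf3 reached 3.57, 3.09 and 3.22 at 150-180 min, a difference of 2.82 ± 0.25 (adjusted p = 1.24e-10 in limma). Sdhaf4 rose by 2.14 ± 0.23 to 3.81, 3.71 and 3.42, and Sdhaf1 by 2.13 ± 0.24 to 3.62, 3.49 and 3.12. All of these arrays stood above every 30-60 min array of their gene, and those of Sdhaf3 also above its 0-30 min arrays. Ndufa6 rose by 2.28 ± 0.27 to 4.32, 4.18 and 4.37, and Ndufaf2 by 2.20 ± 0.23. In the same comparison Sdha rose by 1.75 ± 0.16, Uqcrb, a small subunit of complex III, by 1.91 ± 0.20, Cox5b by 1.65 ± 0.16 and Atp5o by 1.96 ± 0.24. Cycs rose by 1.10 ± 0.23 to 8.47, 8.47 and 8.29. The 4 members not called were Ndufa12 (-0.05), Ndufaf4 (-0.01), Ndufb6 (0.10) and Cox7c (0.72, adjusted p = 0.0883 in limma).

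**Figure D3:**
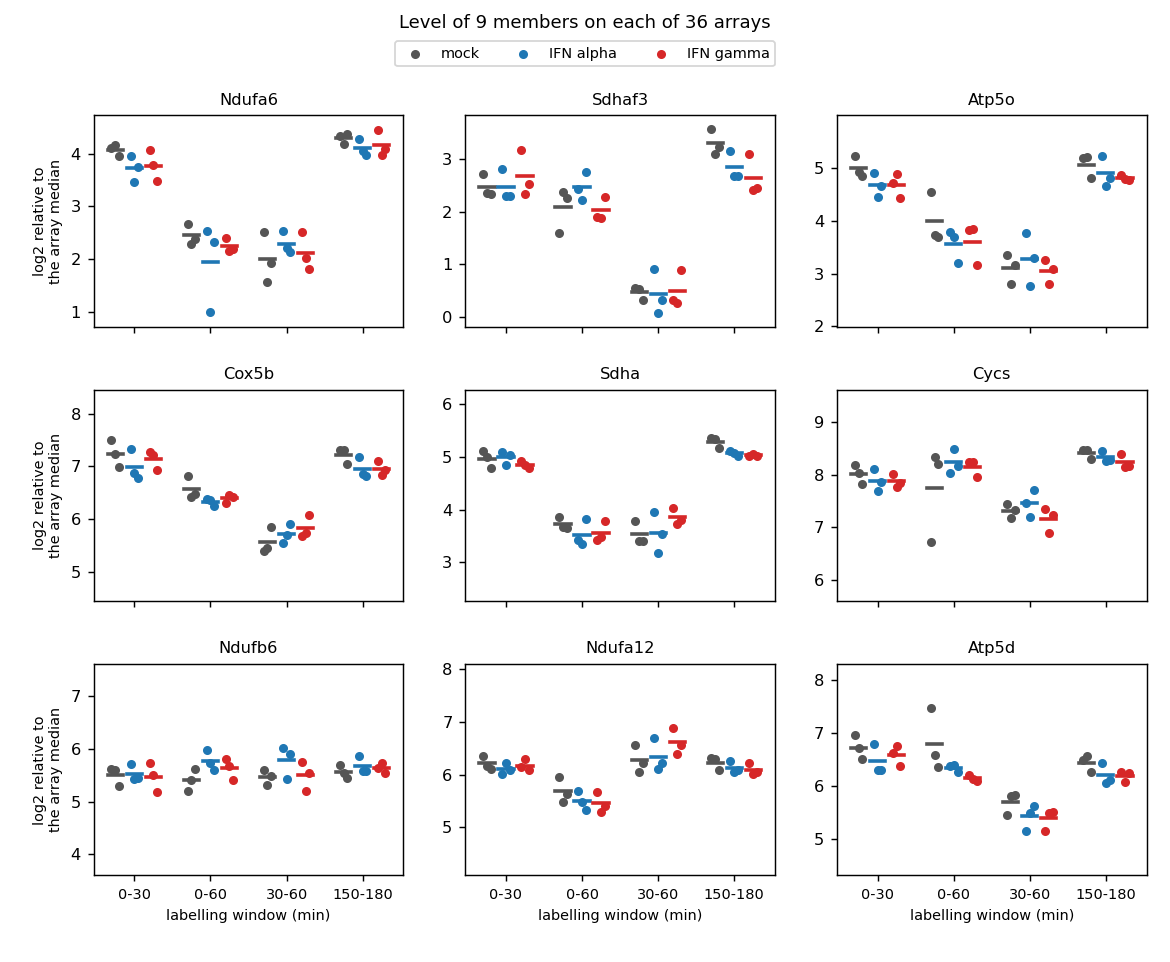
Level of 9 members on each of the 36 arrays (points, log2 relative to the array median; bars, mean of the 3 arrays of a group) by labelling window, coloured by treatment; every panel spans the same number of log2 units. Ndufa6, Sdhaf3, Atp5o, Cox5b and Sdha are low at 30-60 min in all 3 treatments, whereas Ndufb6 stays within a narrow band and Ndufa12 is low at 0-60 min, not at 30-60 min.

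Set against 0-30 min, mock 150-180 min had 1 called member, a rise of Sdhaf3 by 0.82 ± 0.25 (adjusted p = 0.035 in limma), beside 4.81% of all genes higher and 4.83% lower. The call of Sdhaf3 rests on single arrays: it was lost in 5 of the 6 fits that left out 1 array of these groups, where the adjusted p ran from 0.0532 to 0.185. The median difference was 0.04, both for the members and for all genes. At an unadjusted p under 0.05 there were 9 members. The 95% interval lay within a 2-fold change in either direction for 83 of the 86. Sdhaf1 (0.52, adjusted p = 0.193), Sdhaf2 (0.53, 0.14) and Sdhaf4 (0.46, 0.226) were above 0 without passing the threshold.

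The longer window of 0-60 min at 200 µM differs from 0-30 min in length and in 4sU dose as well, so these cannot be told apart. In mock, 46 members fell and 1 rose, beside 26.8% and 10.2% of all tested genes, with a median of -0.52 for the members and -0.19 for all genes. Sdhaf4 (-1.73 ± 0.23), Ndufa6 (-1.62 ± 0.27), Sdha (-1.25 ± 0.16) and the stalk subunit Atp5pb (-1.23 ± 0.16) fell the most. Sdha stood at 3.85, 3.67 and 3.65, clear of its 0-30 min arrays. The fall of Cox7c (-1.21 ± 0.37, adjusted p = 0.0112 in limma) rests on array 1, where the level was 2.29 beside 4.89 and 4.47, and became -0.41 (0.221) without it. Ndufaf4, with 4.85, 5.49 and 5.53 against 4.71, 4.94 and 4.70, was the member that rose (0.51 ± 0.17, adjusted p = 0.0169 in limma), a call lost when any 1 of 4 of these 6 arrays was left out. Cycs was not called (-0.26, 0.407), and its array 1 read 6.72 beside 8.33 and 8.21.

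Both interferon series, which use other arrays than mock, were set between windows in the same way, a comparison added after seeing the data. Same-numbered arrays of the treatments deviated together at 0-30 and 30-60 min, so these series are not independent of mock. From 0-30 to 30-60 min, 75 members fell and 0 rose with IFN alpha (53.5% of all genes lower), and the median difference was -0.55 for all genes, while the members' median dropped by 1.00. With IFN gamma, 76 fell (55.1% lower) and 1 rose (9.31% higher), with a median of -1.07 and -0.57 for all genes. The member that rose was Ndufa12 (0.44, adjusted p = 0.016 in limma). It is read from a probe set of the x type, which may detect related sequences, and its further probe sets differed among themselves in mock, as given above. From 30-60 to 150-180 min, 80 members rose with IFN alpha (53.8% higher) and 78 with IFN gamma (55.6% higher), while Ndufa12 fell with IFN gamma (-0.52, adjusted p = 0.00531, 9.33% of all genes lower). In 70 members (81.4%) all 9 arrays of 30-60 min lay below all 18 arrays of 0-30 and 150-180 min, against 35.4% of all genes. With the median of tested genes subtracted that was 31 members (36%), against 11.2% of all genes.

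**Figure D4:**
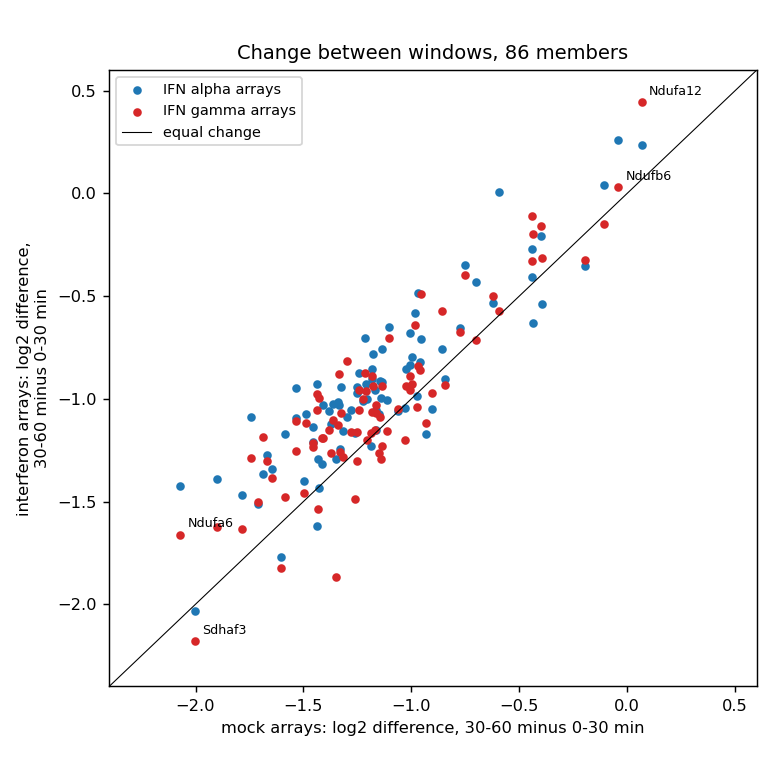
Log2 difference between 30-60 and 0-30 min of the 86 members in mock arrays (horizontal axis) and in IFN alpha or IFN gamma arrays (vertical axis, colour); the line marks equal change. Most points lie between -0.5 and -2 on both axes, with Ndufb6 near 0, Ndufa12 at 0.07 in mock and 0.44 with IFN gamma, and Sdhaf3 and Ndufa6 at the low end.

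Over the 12 group means the range was widest for Sdhaf3 (2.85), Sdhaf1 (2.54), Ndufa6 (2.34), Ndufaf2 (2.20) and Sdhaf4 (2.19), and narrowest for Ndufb6 (0.37), Uqcrc2 (0.53) and Cox5a (0.63). The median range was 2.36 for the complex II assembly factors, of which 1 of 4 passed the filter on all 36 arrays, and 1.24 to 1.54 for the other member groups. Of the promoter motifs, the NRF1 motif was present in 21 tested members, whose median change from 0-30 to 30-60 min was -1.25 (range -2.07 to -0.20), beside -1.18 in the 52 tested members with a promoter in the table and without it. Of the promoters shown above, that of Sdha has 3 matches and that of Ndufaf4 a match that reads on both strands, with changes of -1.43 and -0.20. A description of this kind has no test behind it.

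Other mitochondrial genes were read from lists drawn up beside the members. From 0-30 to 30-60 min in mock, 52.7% of all tested genes fell and 8.68% rose, with a median of -0.53, and the lists are to be read beside these shares. In that comparison 72 of 76 genes of the mitochondrial ribosome fell and 0 rose, with a median of -1.03. Of 45 cytosolic ribosome genes 42 fell (median -0.73), of 27 assembly factors outside the rule 19 fell and 2 rose (-0.86), of 16 citric acid cycle genes 13 fell and 1 rose (-0.84), and of 16 import genes 13 fell and 1 rose (-0.82). With the median of tested genes subtracted, the medians in the same order were -0.45, -0.15, -0.28, -0.26 and -0.24, and the counts were much lower. Then 40 mitochondrial ribosome genes fell and 1 rose, 12 cytosolic ribosome genes fell and 5 rose, 8 assembly factors fell and 2 rose, 6 citric acid cycle genes fell and 1 rose, and 4 import genes fell and 2 rose. On that scale 22.2% of all tested genes fell and 26.5% rose. Of 15 regulators of mitochondrial biogenesis 8 fell and 3 rose (median -0.69), or 4 and 4 (-0.11) with the other reference. Among the assembly factors outside the rule Lrpprc, a partner of mitochondrial mRNAs, fell by 2.41. Among the regulators Polrmt, the mitochondrial RNA polymerase, fell by 2.25 and the coactivator gene Ppargc1b by 2.07. Nrf1, which encodes the factor named above, went up by 1.65 ± 0.25 at 30-60 min (adjusted p = 2.35e-06 in limma) and came down by 1.45 ± 0.25 by 150-180 min. Both moves of Nrf1 were opposite to those of most members and larger with the other reference (2.23 and -2.05).

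Interferon was then compared with mock within each window. Both interferons had the same mock arrays as their control, so a shift in those arrays appears in both comparisons. At 0-30 min 0 members were called in limma with either interferon, beside 0.377% of all genes with IFN alpha and 0.713% with IFN gamma. At 30-60 min 0 were called (2.46% and 6.06% of all genes), and at 150-180 min again 0 (2.62% and 5.81%). At 0-60 min 0 were called with IFN alpha (1.74%) and 1, a fall, with IFN gamma (6.53%, of which lower 2.44%). At an unadjusted p under 0.05, in the order IFN alpha and IFN gamma, the counts were 0 and 0 at 0-30 min, 1 and 2 at 30-60 min, 1 and 8 at 150-180 min and 7 and 9 at 0-60 min. The 95% interval of the difference lay within a 2-fold change for 80 to 86 of the 86 members in each of these 8 comparisons.

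Many members were slightly below mock without passing the test. At 0-30 min 82 members had a difference below 0 with IFN alpha and 83 with IFN gamma, at medians of -0.19 and -0.14 (all genes -0.05 and -0.03, with 64% and 60% of all genes below 0). At 150-180 min the numbers were 80 and 82, at medians of -0.18 and -0.21 (all genes -0.11 in both, with 71.4% and 67.4% below 0). At 30-60 min they were 33 and 45, at medians of 0.04 and -0.01, while all genes had medians of -0.07 and -0.09, with 64.2% and 64.8% below 0. There 71 members with IFN alpha and 62 with IFN gamma lay above the median of all genes. At 0-60 min 58 and 59 members were below 0, at a median of -0.11 in both (all genes 0.02 and -0.02, with 47.7% and 52.4% below 0). Every array of the treated group lay below every mock array for 26 members with IFN gamma at 150-180 min, beside 20.2% of all genes, and for 11 with IFN alpha, beside 17.5%. Members of 1 array share that array's shift, so these counts are not counts of separate events.

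**Figure D5:**
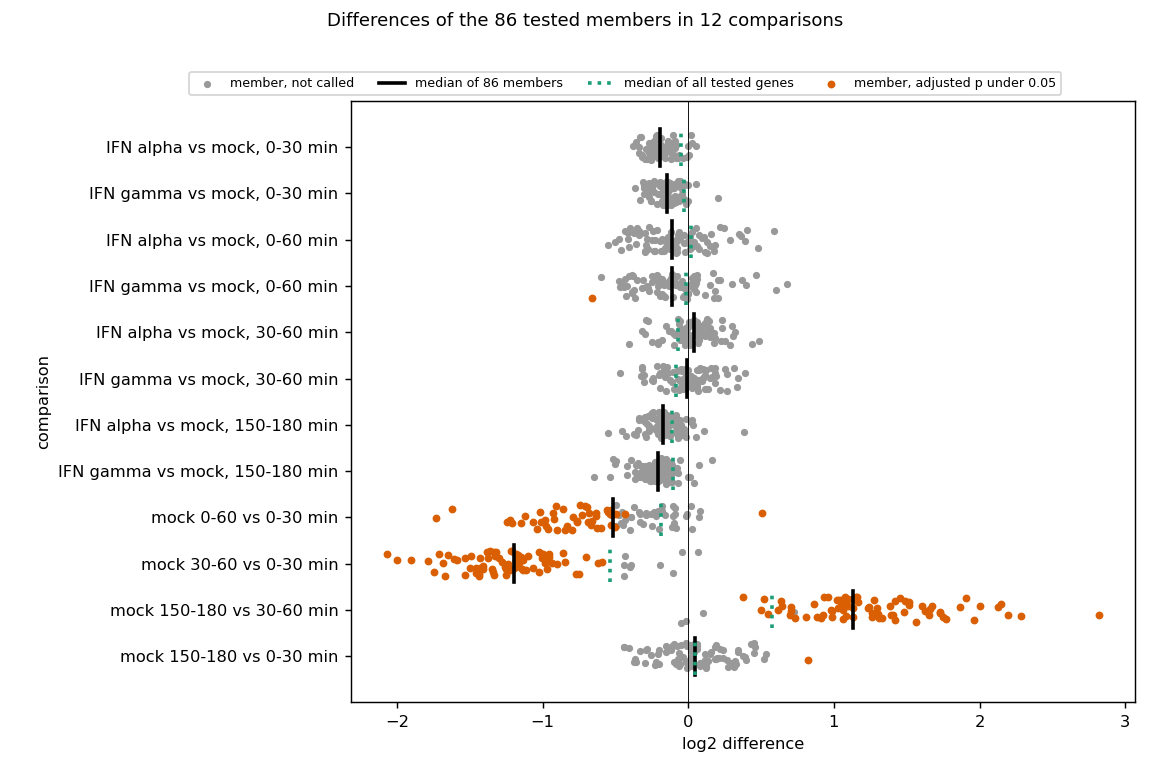
Log2 difference (horizontal axis) of each of the 86 tested members in 12 comparisons, called members in orange, with the median of the members (solid line) and of all tested genes (dotted line). Interferon comparisons centre within 0.21 of 0, and those between 30-60 min and the other 30 min windows centre at -1.19 and 1.13.

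Differences short of the threshold were largest at 150-180 and 0-60 min. With IFN gamma at 150-180 min Sdhaf3 was at -0.65 (adjusted p = 0.19 in limma) and Ndufab1 at -0.54 (0.145). With IFN alpha at 150-180 min Sdhaf1 was at -0.55 (0.497). At 0-60 min Ndufs7, a core subunit of complex I, was at -0.60 (0.158) with IFN gamma and -0.55 with IFN alpha. The assembly factor Ndufaf5 was at 0.68 (0.18) with IFN gamma. Cox7c was at 0.60 with IFN gamma, and at -0.19 without mock array 1.

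The called member was Atp5d, the delta subunit of the F1 part, at 0-60 min with IFN gamma. It read 7.47, 6.59 and 6.36 on the mock arrays and 6.20, 6.14 and 6.09 on the IFN gamma arrays. With IFN alpha, which was not called, it read 6.37, 6.39 and 6.27. The IFN gamma arrays all lay below the mock arrays, with a difference of -0.66 ± 0.20 (95% interval -1.06 to -0.26, adjusted p = 0.0365 in limma). Without mock array 1, the array that stood apart, the difference was -0.33 (adjusted p = 0.401). The call was also lost without each of the IFN gamma arrays (0.0715 to 0.101). Atp5d has 2 kept probe sets, and the probe set used is of the s type, which may detect related sequences. When probe sets were tested in place of genes, 0 of the 158 kept probe sets of the tested members were called in this comparison. In the mean of the 4 windows Atp5d was lower with IFN gamma by 0.34 (-0.34 ± 0.10, adjusted p = 0.0198; -0.26 and 0.0242 without mock 0-60 min array 1), beside 4.9% of all genes lower and 10.6% in either direction. With IFN alpha 0 members were called in that mean, beside 3.8% of all genes and with 8 members at an unadjusted p under 0.05, and Atp5d was at -0.31 (0.0844). Its differences in the other windows with IFN gamma were -0.14, -0.31 and -0.24, none called. The GAS motif of its promoter is shared with Atp5o, Atp5pb, Ndufa8 and Ndufb6. Their differences at 0-60 min with IFN gamma were -0.38, 0.20, 0.06 and 0.22, none called.

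Arrays of the same number deviated together within the windows 0-30, 30-60 and 0-60 min, and a fit with the array number as a block took this up. At 0-60 min with IFN gamma it called 13 members where the fit without the block called 1: 12 fell (10.1% of all genes), among them Atp5d, Ndufs7, Ndufa5 and Sdhb, and Sdhaf2 rose (0.47, 9.45% of all genes higher). With IFN alpha at 0-60 min the block gave 3 lower members (1.21% of all genes), Cox6a1 (-0.42), Ndufa5 (-0.48) and Ndufs7 (-0.55). At 30-60 min with IFN gamma it gave 1, a rise of Ndufa12 by 0.33 (adjusted p = 0.00915 in limma, 13.2% of all genes in either direction). In the mean of the 4 windows, which also takes in 150-180 min where the numbers are not shown to pair arrays, the block called 7 members with IFN alpha (11% of all genes) and 21 with IFN gamma (22.8%). Leaving out mock 0-60 min array 1 removed the call of Atp5d in the fit without the block, and 0 other members were called then. The fit with the block was not run without that array, so its calls at 0-60 min and in the mean of the windows include it.

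Whether a response changed from one window to the next was tested directly, and 0 members were called in limma. From 0-30 to 30-60 min the share of all genes called was 1.23% for IFN alpha and 1.5% for IFN gamma, and from 30-60 to 150-180 min it was 0.493% and 1.83%. At an unadjusted p under 0.05 there were 5, 0, 3 and 6 members in the same order. IFN alpha against IFN gamma over the mean of the 4 windows also gave 0 called members, beside 8.6% of all genes, with a members' median of 0.02. The lowest adjusted p of a member there was 0.112. With the block, 1 member was called in that comparison (13.4% of all genes) and 4 in the change of the IFN gamma response from 30-60 to 150-180 min (5.38%). In the lists beside the members, Cox18, which inserts a complex IV core subunit into the membrane, rose with IFN alpha (1.40 at 30-60 min, adjusted p = 1.91e-05 in limma). In that comparison 2.46% of all genes were called in either direction. Ppargc1b fell with IFN gamma at 0-60 min (-0.80, adjusted p = 0.00592 in limma), beside 2.44% of all genes lower. Each is a single gene of its list, and the other genes of the lists are not described here for interferon.

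The 10 members that did not pass the filter were above it on 0 of the 36 arrays. Of these, 7 are isoforms known from other tissues: Cox4i2 of lung, Cox6a2, Cox7a1 and Cox8b of heart and skeletal muscle, and Cox6b2, Cox7b2 and Cox8c of testis. Their mean deposited log2 values were 2.31, 2.22, 2.57, 2.49, 2.42, 2.45 and 3.81. Ndufa4l2, known as a hypoxia-induced relative of Ndufa4, had 1.96. The remaining ones, the assembly factor Ndufaf3 (2.19) and the accessory subunit Ndufb4 (2.25), are subunit or assembly genes of most tissues, and a low reading of a single probe set does not show that they were not transcribed. Ndufs5 passed the filter on 6 arrays, Ndufaf6 on 16 and Ndufaf5 on 19, so their differences rest partly on signal near background.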

How the data were processed

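Newly transcribed RNA of 36 samples was measured on Affymetrix arrays. The authors made the deposited log2 values with GCRMA; that name comes from the submitters' processing notes, with version and genome build not given in the sources used here. They run from 1.34 to 14.8, and the log2 scale was inferred from this range. GCRMA subtracts background by probe sequence and equalises arrays, which compresses low signals. How labelled RNA was separated is not described here.

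From these values the array median was subtracted, probe sets over log2 4 on at least 3 arrays were kept, and a limma 3.58.1 model (run in R 4.3.3 with data.table, version 1.17.8) was fitted to the means of the 12 groups (lmFit and eBayes with an intensity trend, 24 residual and 6.95 prior degrees of freedom). Each comparison is a contrast, two-sided, with Benjamini-Hochberg adjustment over 9538 genes and a call at an adjusted p under 0.05. Errors are standard errors and n is 3 arrays per group. Arrays give no counts, and their number limits the precision. The script was tested on simulated data.

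The members and lists were chosen with earlier results of these data known. Named members were, per comparison, up to 5 called rises and falls, a fixed panel of anchor genes, the widest and narrowest ranges, and those behind counts of 5 or fewer; near-threshold members were named after their values were seen.

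Same-numbered arrays of different treatments deviated together, with all 9 pairs over 0.1 at 0-30 min (0.204 to 0.652), 30-60 min (0.316 to 0.695) and 0-60 min (0.179 to 0.669), but 7 of 9 pairs at 150-180 min (-0.288 to 0.686). Pairing comes from these data, since the labels only number the arrays. Alternatives were other scalings, filters, pseudocounts, probe set rules, arrays in the fit, the block, and leaving out each array. Probe genes came from the platform annotation (34945 probe sets with 1 symbol, 932 with several, 9160 with none), and all 96 members matched RefSeq's list of mouse genes. Of the tested members' probe sets, 13 are of the s type and 4 of the x type, which may detect related sequences.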

Additional observations from a re-analysis of the deposited data

How the results depend on the processing

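Each result was recomputed under the alternatives, and the counts and medians not given here stayed within 1.5 times or 1 SD between arrays (0.159 for a median). Medians near 0 turned sign within that spread when an array was left out: mock 150-180 against 0-30 min (-0.07 to 0.15), IFN alpha at 30-60 min (-0.05 to 0.15), IFN gamma at 30-60 min (-0.06 to 0.08, and 0.01 to 0.04 under 4 other settings) and IFN alpha against IFN gamma (-0.01 to 0.04). With the median of the tested genes subtracted (chosen after seeing the data), the members' median was -0.62 for mock 30-60 against 0-30 min and 0.53 for 150-180 against 30-60 min, and signs turned in the former for Uqcrc2 (0.47), Ndufb6 (0.54), Ndufaf4 (0.38), Cox5a and Cox7c (0.18 each) and Ndufs4, Ndufs5 and Ndufaf1 (0.14 each), and in the latter for Uqcrc2 (-0.23), Ndufb6 (-0.50), Ndufaf1 (-0.11), Cox5a (-0.081) and Cox4i1 (-0.056).

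The replicate block, which pairs arrays of 1 number, moved the counts of called members to 1 (IFN gamma 30-60 min), 2 (IFN alpha 150-180 min, 4.77% of all genes), 8 (IFN gamma 150-180 min, 12.1%), 3 (IFN alpha 0-60 min), 13 (IFN gamma 0-60 min), 7 (IFN alpha, mean of windows, 11%), 21 (IFN gamma, mean of windows, 22.8%), 1 (IFN alpha against IFN gamma, Ndufb1, 13.4%) and 4 (IFN gamma response, 150-180 minus 30-60 min, 5.38%); at 150-180 min the numbers are not shown to pair arrays. It changed no other count by over 1.5 times. In the comparisons between mock windows the block paired arrays of 1 number across windows. Shared deviations were measured only within a window, so that pairing is not shown by these data.

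For IFN gamma at 150-180 min only the arrays of that window gave 3 and a fit without mock 0-60 min array 1 gave 1. For IFN gamma at 0-60 min no filter, the mean of probe sets and the window's own arrays each gave 0. For mock 150-180 against 0-30 min no filter gave 0, the windows' own arrays 9 and the fit without mock 0-60 min array 1 gave 3. The cause was not tested.

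Leaving out each array in turn gave 0 to 1 members for IFN gamma at 150-180 min, 0 to 2 for IFN alpha at 0-60 min, 0 to 9 for IFN gamma at 0-60 min (9 without mock array 2, 2 without mock array 3, 0 without each of the others), 0 to 1 for the IFN alpha mean, 1 to 3 for the IFN gamma mean, 0 to 1 for IFN alpha against IFN gamma, 0 to 1 for mock 150-180 against 0-30 min, 32 to 55 for mock 0-60 against 0-30 min, 76 to 80 for 30-60 against 0-30 min and 78 to 82 for 150-180 against 30-60 min. Low signal over background limits Sdhaf3, Ndufs5, Ndufaf5 and Ndufaf6. It also limits the complex II assembly factors as a group, of which 1 of 4 passed the filter on all 36 arrays.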
